A study of Mus musculus with 8 samples.

Results

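Whole liver of mice exposed to carbon tetrachloride (CCl4) for any length of time was compared with liver of untreated mice, by pooling the 6 CCl4 cards of the series, 2 each at 1, 4 and 8 weeks, against its 2 untreated cards. A card is a TaqMan Array Rodent MicroRNA A Card, a plate of separate quantitative PCR reactions with a single small RNA assayed in each, and it was run on reverse-transcribed total liver RNA without pre-amplification. The question was which microRNAs (miRNAs) had every CCl4 card on the same side of both untreated cards, whatever the duration. Of 381 assays listed, 168 gave a threshold cycle (Ct, the PCR cycle at which signal crosses a threshold) on all 8 cards, and these 168 were compared. A further 111 gave a Ct on some cards and 102 on none.

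All mice were C57B6 females, 4 weeks of age when treatment began. CCl4, a hepatotoxin, was given by intraperitoneal injection in corn oil at a dose of 1 mg/kg by the labels, while the study's methods state the dose as a volume. The untreated group is labelled as a control with no treatment, so no injection of oil alone is recorded for it, and CCl4, corn oil and the injections cannot be told apart here. The age of the untreated mice at collection is not given, so age and duration cannot be told apart either. The design text gives more animals than cards at 1 and 4 weeks. For its miR-29 measurements the paper also lists more normal livers than there are untreated cards. Whether a card held RNA of 1 mouse or of a pool is not stated. The p-values therefore measure only the spread between these samples, which may be technical.

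MiRNAs are short RNAs that pair with messenger RNAs mainly through their seed, the bases near the 5′ end, and lower the output of those messages. MiRNAs with the same seed form a family that can share targets. In liver, miR-122, miR-192, miR-194 and miR-802 are known from hepatocytes, miR-223 and miR-142 from leukocytes, miR-199a and miR-214 from stellate cells, the collagen-producing cells of fibrosis, and the miR-29 family as a repressor of collagen and other matrix genes. MiR-34a is a transcriptional target of p53.

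Levels are given on a log2 scale as an assay's Ct subtracted from the average Ct of the 168 assays on the same card, so 1 unit is 1 PCR cycle, or a doubling at full efficiency. Levels were compared between cards and not between assays. The summed level of a list is the exception, since it adds assays together and so weights them by their Ct. The mean Ct of the untreated cards was 29.0 and 28.6, and that of the CCl4 cards ran from 28.03 to 30.4, with both extremes among the 4-week and 8-week cards. Between 193 and 235 assays gave a Ct on a card. No 2 cards held identical values. The liver marker miR-122 was determined on all 8 cards, and none of the 4 pancreas assays was.

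The mature sequences of 132 of the 168 assays were found in the RefSeq annotation of GRCm38.p6, 31 by the arm in the assay name and 101 through the arm that carried the older unmarked name. They are printed 5′ to 3′ with the seed, bases 2 to 8, in capitals. The first set holds the seeds of which at least 2 measured members lay lower on all 6 CCl4 cards.
miR-29a: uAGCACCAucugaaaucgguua
miR-29b: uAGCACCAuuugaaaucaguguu
miR-29c: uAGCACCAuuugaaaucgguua
miR-103: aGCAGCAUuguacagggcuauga
miR-107: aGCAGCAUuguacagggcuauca
miR-26a: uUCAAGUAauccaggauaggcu
miR-26b: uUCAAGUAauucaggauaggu
miR-30a: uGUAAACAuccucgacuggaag
miR-30c: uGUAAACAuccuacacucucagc
miR-148a: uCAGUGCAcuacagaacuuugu
miR-152: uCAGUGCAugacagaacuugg
let-7f: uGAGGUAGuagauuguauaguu
let-7g: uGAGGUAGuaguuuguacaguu

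The second set holds leading miRNAs of either direction, each with a seed of its own among these.
miR-802: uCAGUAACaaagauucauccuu
miR-192: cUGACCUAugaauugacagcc
miR-194: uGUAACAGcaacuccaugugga
miR-409-3p: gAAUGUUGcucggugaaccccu
miR-410: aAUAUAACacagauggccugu
miR-184: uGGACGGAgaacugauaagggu
miR-34a: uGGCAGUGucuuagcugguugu
miR-223: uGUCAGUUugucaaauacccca

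The third set holds a pair with 1 seed whose members lay on opposite sides of the untreated cards.
miR-193: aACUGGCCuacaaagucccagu
miR-193b: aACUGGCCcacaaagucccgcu

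Of the 168 assays, 20 (11.9%) were higher on all 6 CCl4 cards than on both untreated cards and 30 (17.9%) were lower. By the gap between the nearest CCl4 and the nearest untreated card, the higher assays were led by miR-409-3p, miR-184, miR-34a and miR-223. By the same measure the lower were led by miR-802, rno-miR-345-3p, miR-107, miR-194 and the control RNA U87. The difference of the means ran from 0.41 to 4.22 among the higher assays, with a median of 1.48, and from -2.43 to -0.37 among the lower, with a median of -1.10. Over all 168 assays the median difference was -0.05 and the median absolute difference 0.56. In whole liver, fewer cells of a type and less RNA per cell cannot be told apart.

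**Figure D1:**
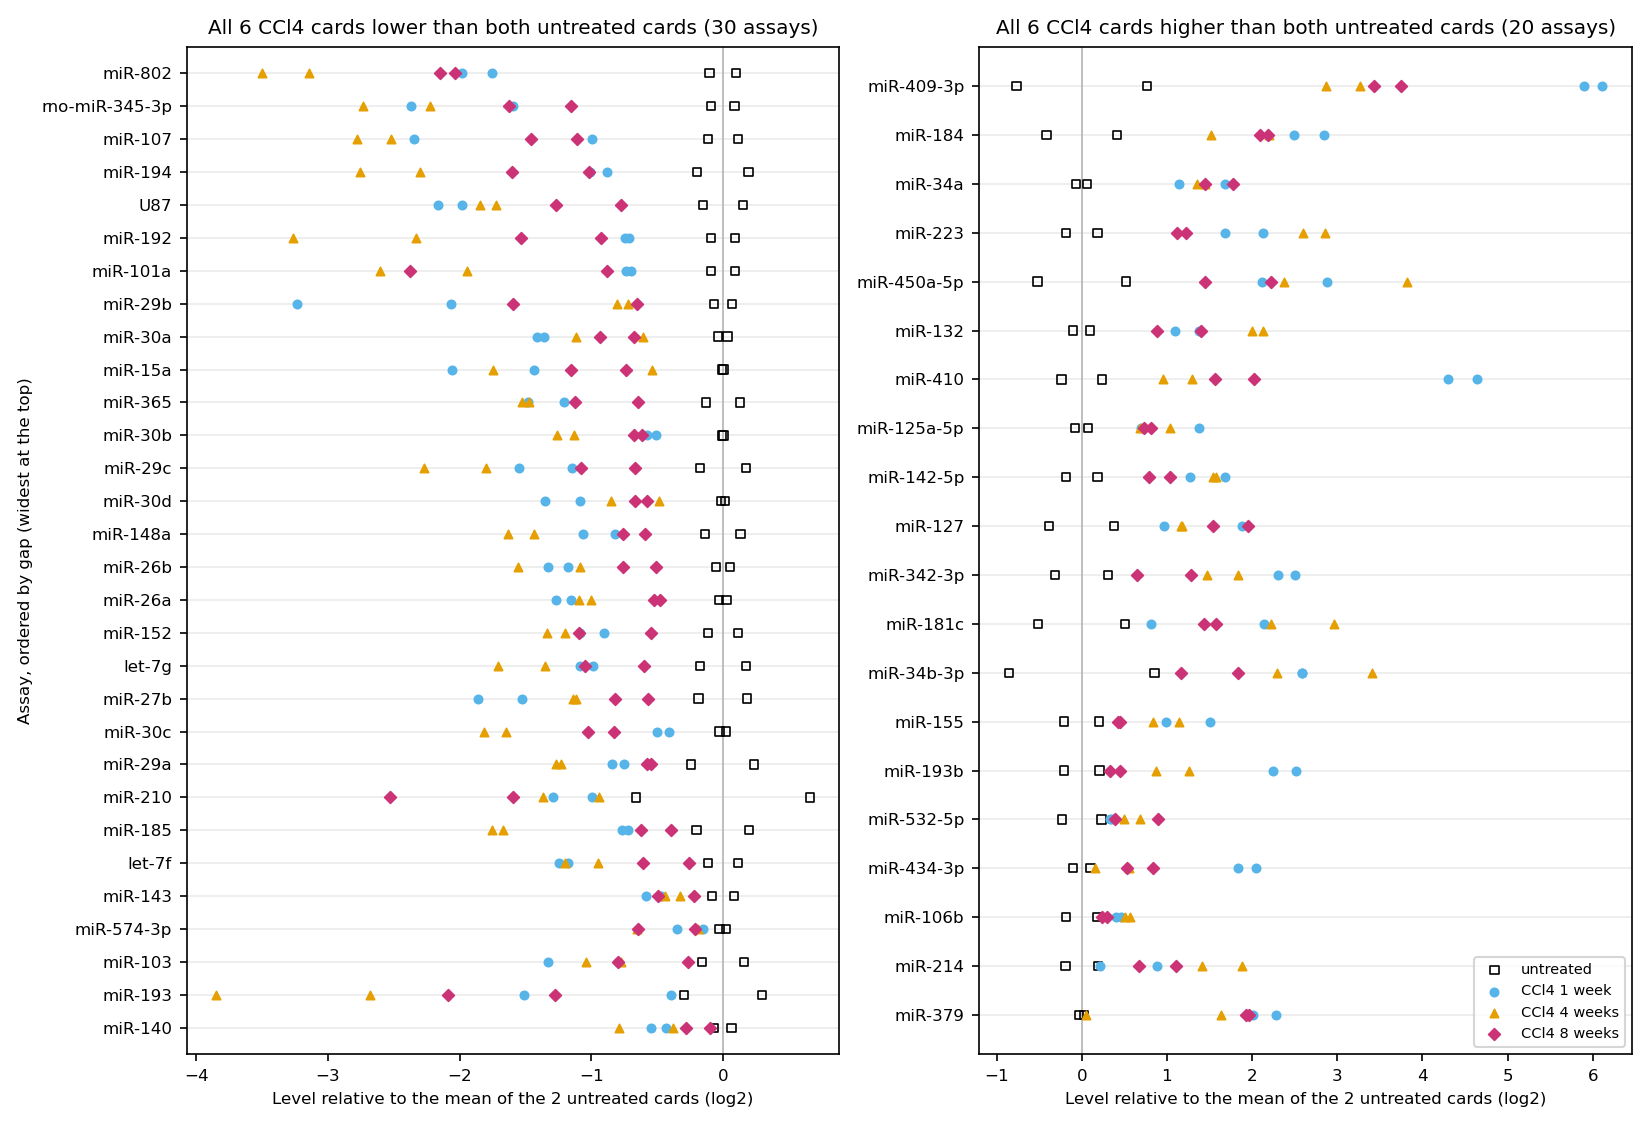
Level of each of the 8 cards, relative to the mean of the 2 untreated cards (log2, horizontal axis), for the 30 assays lower and the 20 assays higher on all 6 CCl4 cards, ordered by the gap between the nearest CCl4 and the nearest untreated card. Open squares are untreated cards and filled symbols CCl4 cards by duration. The widest gaps are those of miR-802 (1.65) and miR-409-3p (2.11), and for miR-140 and miR-379 the cards nearly touch.

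The gap, the distance from the nearest CCl4 card to the nearest untreated card, sorts clear from marginal cases. Its median was 0.47 for the higher and 0.45 for the lower assays. It passed 0.5 for 10 of the 20 higher and 12 of the 30 lower assays, and it was under 0.2 for 6 and 7. At the edge, miR-379 was counted as higher with a gap of 0.016 and miR-140, a miRNA of cartilage, as lower with a gap of 0.032. Just outside, miR-146b, an NF-kB-induced miRNA, failed by 0.0064 through CCl4 8 weeks replicate 2, and miR-126-5p, an endothelial miRNA, failed by 0.017 through CCl4 1 week replicate 2.

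With limma's moderated test of the pooled 6 against 2 cards, 0 of 168 assays passed an adjusted p of 0.05 as higher (0%) and 0 as lower (0%). At an unadjusted p below 0.05, 17 were higher and 25 lower, 41 of them assays whose groups did not overlap. The smallest adjusted p of limma's pooled test was 0.0596. This test puts differences among durations into its error: the median SD was 0.69 over the 6 CCl4 cards, against 0.40 within groups of the same duration. In a limma model with 4 group means, which sets the mean of the 3 durations against untreated, 21 assays (12.5%) were called higher and 28 (16.7%) lower, of which 18 and 26 did not overlap. These calls rest on both untreated cards. Without untreated replicate 1 they numbered 11 higher and 5 lower, and without untreated replicate 2, 5 and 1, with the lone untreated card assumed to vary like the other groups. The calls of the model with 4 group means also moved with the scaling. With the cards scaled to control RNAs more assays were called higher than lower, and without centring few were called in either direction. The counts are given under the dependence on processing. The pooled test was the planned test, and the model with 4 group means was planned only as an alternative to it. The calls of this model are printed although the planned test called none, a choice made after the data were seen. Unless the pooled test is named, adjusted p-values and limma calls below are from the model with 4 group means. In it the cards were centred on the 168 assays. The SEs printed beside these p-values are those of the pooled test.

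**Figure D2:**
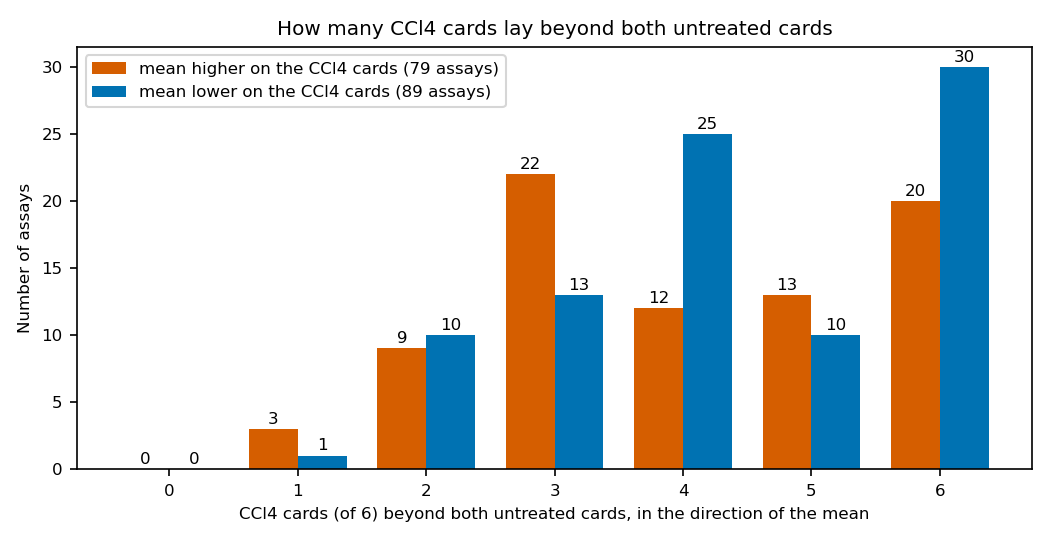
Number of assays (vertical axis) by how many of the 6 CCl4 cards lay beyond both untreated cards in the direction of the mean difference (horizontal axis), for assays with a higher and a lower mean on the CCl4 cards. All 6 cards lay beyond for 20 higher and 30 lower assays, and exactly 5 did for 13 and 10.

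Among the assays lower on every CCl4 card were 5 of the 7 hepatocyte-enriched miRNAs measured, beside 17.9% of all assays. MiR-802, which is known from metabolic disease of the liver, had levels of -0.06 and 0.14 on the untreated cards and from -3.47 to -1.71 on the CCl4 cards, with a median of -2.05. No CCl4 card came within 1.65 of an untreated card. The difference was -2.43 ± 0.52 (SE, 6 against 2 cards), 0.186 of the untreated level, with a limma adjusted p of 0.000843 and 0.0596 in the pooled test. It lies at chr16:93369737-93369758 on the plus strand, outside the annotated span of any other gene.

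MiR-192 and miR-194 are neighbours at chr19:6264658-6264877, and miR-194 has a second copy on chromosome 1. MiR-192 had levels of 7.59 and 7.77 on the untreated cards and from 4.41 to 6.97 on the CCl4 cards, with a median of 6.45. MiR-194 had 4.99 and 5.38 on the untreated cards and from 2.42 to 4.31 on the CCl4 cards, with a median of 3.87. Both were lower on every card and by the same amount, with differences of -1.59 ± 0.68 and -1.59 ± 0.55 and limma adjusted p-values of 0.0113 and 0.00878. Their lowest levels were on the 4-week cards.

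MiR-101a, which targets the histone methyltransferase Ezh2, had levels of 1.47 and 1.65 on the untreated cards and a range of -1.05 to 0.86 on the CCl4 cards, with a median of 0.14. MiR-148a, an abundant hepatocyte miRNA, had 2.99 and 2.72 on the untreated cards and a range of 1.22 to 2.26, with a median of 1.91. Neither overlapped, and the differences were -1.54 ± 0.60 and -1.05 ± 0.38 (limma adjusted p = 0.026 and 0.015). The other 2 measured hepatocyte-enriched assays behaved otherwise. MiR-122, the most abundant miRNA of hepatocytes, had 7.05 and 6.21 on the untreated cards and from 5.09 to 7.26 on the CCl4 cards, so the groups overlapped, and its mean lower by 0.53 became 0.027 higher under quantile normalization. MiR-215, with the seed of miR-192, had a mean difference of 0.54 and overlapped.

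The 7 measured hepatocyte-enriched assays had a median difference of -1.54, beside -0.05 over all assays. The 5 on 1 side became 4 with scaling to the control RNAs and 1 without centring. In the 4-group model 5 were called lower by limma and 0 higher, beside 16.7% and 12.5% of all assays. Their summed level, which is dominated by the assays with the lowest Ct, was 8.43 and 8.52 on the untreated cards and 6.87 to 7.91 on the CCl4 cards. The list was chosen with earlier results of these data known, so its count is not independent evidence.

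The miR-29 family, which represses collagens, elastin and fibrillin, was lower on all 6 CCl4 cards in each of its 3 members. MiR-29a had levels of 7.30 and 6.82 on the untreated cards and from 5.79 to 6.51 on the CCl4 cards, with a median of 6.26. MiR-29b had -1.56 and -1.70 on the untreated cards and from -4.87 to -2.29, with a median of -2.83. MiR-29c had 4.84 and 4.49 and from 2.39 to 3.99, with a median of 3.31. The gaps were 0.31, 0.58 and 0.49, so the weakest separation was that of miR-29a.

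MiR-29a differed by -0.87 ± 0.35, miR-29b by -1.51 ± 0.67 and miR-29c by -1.42 ± 0.45 from untreated liver, with limma adjusted p-values of 0.0266, 0.0222 and 0.0111. In the exact two-sided permutation test over the 28 ways to choose 2 of 8 cards, p was 0.0357 for miR-29a and miR-29c, the smallest this design allows, and 0.107 for miR-29b. After adjustment over the 3 members the exact test gave 0.0536, 0.107 and 0.0536. MiR-29b overlapped with no untreated card but spread widely among durations, from -2.65 relative to untreated at 1 week to -0.76 at 4 weeks. MiR-29a and miR-29c differ at 1 of 22 aligned positions, and cross-detection between assays of such close sequences was not tested. The family comes from 2 loci, miR-29b and miR-29c at chr1:195037091-195037621 on the plus strand within the lncRNA A330023F24Rik, and miR-29a and miR-29b at chr6:31062673-31063047 on the minus strand.

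Of the 132 assays with a sequence, 63 shared their seed with another, in 21 shared seeds. The 23 lower assays with a sequence held 16 distinct seeds, and 13 of the 23 belonged to 6 seeds with 2 or 3 lower members, while the other 15 shared seeds held fewer than 2. The 19 higher assays with a sequence held 19 distinct seeds. Every measured member was lower for miR-29 (3 of 3), miR-103 and miR-107 (2 of 2) and miR-26 (2 of 2), beside 17.9% of all assays. With scaling to the control RNAs or without centring none of these families was complete, since only miR-107 kept its side. This is a count, without a test, and assays for near-identical sequences need not be independent.

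MiR-107 and miR-103, which lie within the pantothenate kinase genes Pank1, Pank2 and Pank3, differ at 1 of 23 positions. MiR-107 had levels of -0.99 and -1.22 on the untreated cards and from -3.89 to -2.10 on the CCl4 cards, with a median of -3.01, a difference of -1.87 ± 0.55 (limma adjusted p = 0.0111). MiR-103 had 0.73 and 0.41 on the untreated cards and from -0.76 to 0.30, with a median of -0.23, a difference of -0.83 ± 0.36 (limma adjusted p = 0.0585). The separation of miR-103 was narrow, with a gap of 0.11 set by an 8-week card.

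MiR-26a and miR-26b, which lie within the phosphatase genes Ctdspl, Ctdsp2 and Ctdsp1, were both lower on every CCl4 card. MiR-26a had 5.44 and 5.38 on the untreated cards and from 4.14 to 4.93 on the CCl4 cards, and miR-26b had 4.35 and 4.24 and from 2.73 to 3.78. The differences were -0.92 ± 0.35 and -1.07 ± 0.36 (limma adjusted p = 0.0173 and 0.0161).

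Of the miR-30 family, which is abundant in differentiated epithelia, 4 of 5 members were lower on every CCl4 card and all 5 were called lower by limma, beside 17.9% and 16.7% of all assays. The 4 became 1 (miR-30c) with scaling to the control RNAs, 2 (miR-30a and miR-30d) with quantile normalization and 0 without centring. The limma calls also depend on the scaling, and those given here are from centring on the assays determined on all cards. Over all assays, limma called far fewer lower with scaling to the control RNAs or without centring. The differences of miR-30a, miR-30b, miR-30c and miR-30d ran from -1.04 to -0.79. MiR-30c had levels of 6.51 and 6.56 on the untreated cards and from 4.71 to 6.12 on the CCl4 cards, with a median of 5.61. MiR-30e overlapped through its 1-week cards, at 4.55 and 4.45 against 4.22 and 4.68 on the untreated cards, with a difference of -0.997.

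MiR-148a shared its seed and its direction with miR-152, which had 1.14 and 0.91 on the untreated cards and from -0.32 to 0.47 on the CCl4 cards. Their relative miR-148b, which differs from miR-148a at 2 of 22 positions, overlapped with a difference of 0.17. Of the 9 let-7 assays, let-7f and let-7g were lower on every card, at -0.91 ± 0.37 and -1.13 ± 0.37 (limma adjusted p = 0.0236 and 0.0161), while the other 7 overlapped. That is 2 of 9 beside 17.9% of all assays, so the family's share was near the background. The median of the let-7 assays was -0.31, and it was 0.06 with scaling to the control RNAs. The 2 let-7 assays lower on every card became 0 with that scaling or without centring, and 3 with quantile normalization. In the miR-15/16 family, miR-15a was lower on every card, with 2.10 and 2.09 on the untreated cards and from 0.03 to 1.55 on the CCl4 cards. MiR-15b and miR-497, named after their values were seen, each had 5 of 6 CCl4 cards above the untreated cards, with differences of 1.47 and 0.98 (limma adjusted p = 0.0263 and 0.0369). Of the 6 members of the miR-15/16 family, limma thus called 2 higher and 1, miR-15a, lower (adjusted p = 0.0339). Over all assays limma called 12.5% higher and 16.7% lower, so the family's lower share was at the background. Its members higher on every card numbered 0, but 1 with centring on the card median. They numbered 2 with quantile normalization or centring on assays below a Ct of 35. MiR-15a lost its side with scaling to the control RNAs and without centring.

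**Figure D3:**
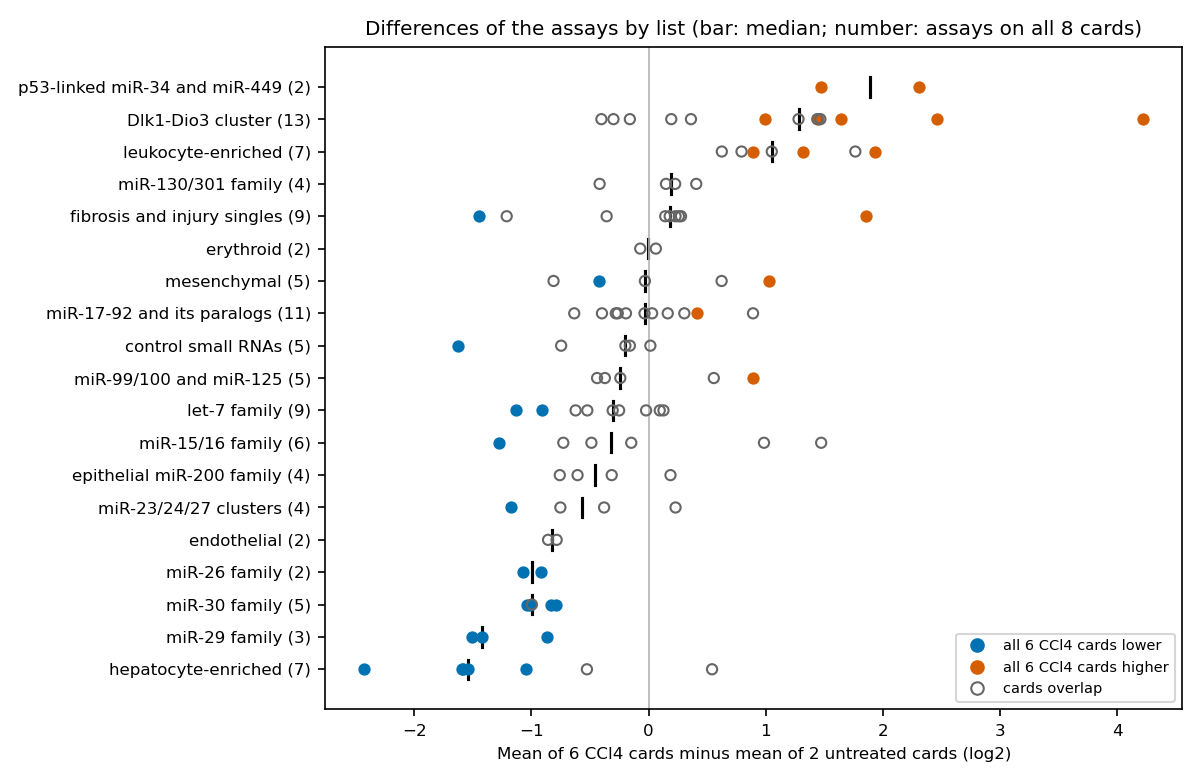
Mean of the 6 CCl4 cards minus mean of the 2 untreated cards (log2, horizontal axis) for each assay determined on all 8 cards, by list, with the number of such assays in brackets. Bars mark the list median, filled points the assays whose 6 CCl4 cards all lay lower (blue) or higher (orange), and open points those whose cards overlap. The hepatocyte-enriched list has its median at -1.54 and the leukocyte-enriched list at 1.05.

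Other assays lower on every CCl4 card lay outside these families. The rat assay rno-miR-345-3p, included on the rodent card, had -0.79 and -0.97 on the untreated cards and from -3.62 to -2.04 on the CCl4 cards, a difference of -1.95 ± 0.45 (limma adjusted p = 0.00675). The mouse miR-345-3p assay gave a Ct on both untreated cards and on 1 of 6 CCl4 cards. All its Ct values were late, from 34.5 to 35.4, so a missing Ct says little. The other arm, miR-345-5p, overlapped with a difference of -0.78. MiR-27b, an angiogenesis-linked miRNA, had 0.72 and 0.35 on the untreated cards and from -1.33 to -0.04, whereas miR-27a, with the same seed, overlapped with a difference of 0.23.

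MiR-210, the main hypoxia-induced miRNA, had 1.45 and 2.77 on the untreated cards and from -0.42 to 1.16 on the CCl4 cards. The 2 untreated cards of miR-210 lay further apart than its gap of 0.28, and the difference of the means was -1.45 ± 0.51 (limma adjusted p = 0.0339), or -2.11 without untreated replicate 1 and -0.79 without untreated replicate 2. MiR-143, a smooth muscle miRNA, was lower on every card by a mean of 0.42, with 1.85 and 1.68 on the untreated cards and from 1.18 to 1.54 on the CCl4 cards, and limma did not call it (adjusted p = 0.214). The control small nucleolar RNA U87 had 3.15 and 3.45 on the untreated cards and from 1.13 to 2.52 on the CCl4 cards, a difference of -1.63 ± 0.42.

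The assays higher on every CCl4 card included 5 of the 13 measured miRNAs of the Dlk1-Dio3 cluster, beside 11.9% of all assays. The cluster is an imprinted region of chromosome 12 known for its activity in embryo and brain. The 5 became 3 with centring on the card median or quantile normalization, 2 with centring on all determined assays and 1 without centring, with miR-379 and miR-434-3p lost in each, and 6 with scaling to the control RNAs. MiR-409-3p and miR-410 span 581 bases together, at chr12:109743204-109743784 on the plus strand, within the lncRNA Mirg. MiR-409-3p had levels of -6.65 and -5.12 on the untreated cards and from -3.02 to 0.22 on the CCl4 cards, with a median of -2.30. MiR-410 had -6.76 and -6.29 and from -5.58 to -1.89, with a median of -4.74. For both, the 1-week cards were the highest.

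The differences were 4.22 ± 0.94, or 18.7-fold, for miR-409-3p and 2.46 ± 1.01, or 5.51-fold, for miR-410 (limma adjusted p = 0.000843 and 0.00145). Untreated replicate 1 had a Ct of 35.65 for miR-409-3p, and the fold was 10.97 without untreated replicate 1 and 31.7 without untreated replicate 2. MiR-127 and miR-434-3p, which lie antisense to the retrotransposon-like gene Rtl1, had differences of 1.45 ± 0.40 and 0.99 ± 0.54 (limma adjusted p = 0.0174 and 0.0187). MiR-127 had -4.14 and -3.38 on the untreated cards and from -2.79 to -1.82 on the CCl4 cards, and miR-434-3p -5.04 and -5.25 and from -4.99 to -3.10. MiR-379 had 1.64 as its difference but nearly touched the untreated cards at -1.70 and -1.64 through CCl4 4 weeks replicate 2, at -1.63, with its other 5 cards from -0.04 to 0.61.

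Of the 13 cluster members, 10 had a higher mean on the CCl4 cards, beside 79 of all 168 assays, and the median difference was 1.28. Limma called 5 higher and 0 lower, beside 12.5% and 16.7% of all assays. Of the 46 cluster members with an assay, 13 gave a Ct on all 8 cards, so this count leaves out those not determined on every card, and 16 to 24 gave a Ct on a card. The cluster also held members that overlapped with untreated liver, with means on both sides of it among durations. MiR-136 was at 1.51, -1.41 and -0.58 relative to untreated at 1, 4 and 8 weeks, and miR-494 at -1.95, 0.24 and 0.50.

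All 7 leukocyte-enriched assays had a higher mean on the CCl4 cards, with a median difference of 1.05, and 3 were higher on every card, beside 79 of 168 and 11.9% over all assays. The 3 became 6 with scaling to the control RNAs, 2 with centring on all determined assays and 1 without centring. Like the other lists, this one was chosen with earlier results of these data known. MiR-223, a miRNA of neutrophils and monocytes, had 3.65 and 4.02 on the untreated cards and from 4.95 to 6.69 on the CCl4 cards, with a median of 5.74. MiR-142-5p, a pan-leukocyte miRNA, had -4.97 and -5.34 and from -4.37 to -3.48, with a median of -3.75. MiR-155, induced in activated macrophages and lymphocytes, had -1.61 and -1.20 and from -0.99 to 0.10, with a median of -0.49.

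The differences were 1.94 ± 0.52 for miR-223, 1.32 ± 0.36 for miR-142-5p and 0.89 ± 0.39 for miR-155, with limma adjusted p-values of 0.00326, 0.0106 and 0.0343. MiR-146b was also called (adjusted p = 0.015) but overlapped. MiR-142-3p, from the same hairpin as miR-142-5p, overlapped because its 1-week cards, at 0.68 and 0.60, lay below the untreated cards at 1.07 and 0.91. The summed level of the 7 assays was 5.36 and 6.06 on the untreated cards and 6.20 to 7.62 on the CCl4 cards. The erythroid assays miR-451 and miR-486 had differences of 0.06 and -0.07. How far a change in cell makeup contributes to any of these differences was not tested.

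MiR-34a and miR-34b-3p, of the p53-linked family, were both higher on every CCl4 card, beside 11.9% of all assays. Without centring only 1 of the 2, miR-34b-3p, kept its side. MiR-34a had -0.97 and -1.10 on the untreated cards and from 0.10 to 0.74 on the CCl4 cards, with a median of 0.41, a difference of 1.47 ± 0.32 or 2.78-fold (limma adjusted p = 0.00878). Its mean difference was 1.41, 1.40 and 1.61 at 1, 4 and 8 weeks. MiR-34b-3p had -4.02 and -2.31 on the untreated cards and from -2.01 to 0.23 on the CCl4 cards, a difference of 2.31 ± 0.63, which was 1.45 without untreated replicate 1 and 3.17 without untreated replicate 2. The other 3 members with an assay were not determined on every card.

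MiR-184, known from the eye and from neurons, had -5.68 and -6.51 on the untreated cards and from -4.58 to -3.25 on the CCl4 cards, with a median of -3.91. All 6 CCl4 cards cleared the untreated cards by at least 1.11, and the difference was 2.22 ± 0.42 or 4.66-fold (limma adjusted p = 0.00518). MiR-132, a CREB target, had -0.17 and -0.37 on the untreated cards and from 0.61 to 1.85 on the CCl4 cards, a difference of 1.48 ± 0.41 (limma adjusted p = 0.00878). MiR-450a-5p, encoded on the X chromosome beside miR-322 and miR-503, had -3.78 and -4.82 and from -2.86 to -0.49, a difference of 2.48 ± 0.59, while miR-322 overlapped.

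MiR-125a-5p had 0.63 and 0.78 on the untreated cards and from 1.38 to 2.08 on the CCl4 cards, a difference of 0.89 ± 0.33 (limma adjusted p = 0.0393). MiR-181c, a dim assay with a mean Ct of 35.05, had -6.85 and -7.87 and from -6.54 to -4.41, a difference of 1.86 ± 0.56. MiR-214, a stellate cell miRNA, was higher on every card by a mean of 1.03 with a gap of 0.027 (limma adjusted p = 0.0342), and its neighbour miR-199a-3p had 5 of 6 cards above the untreated cards. Of the 5 measured mesenchymal assays, which also include miR-143, miR-145 and miR-10b, 1 was higher and 1 lower on every card, and 2 had a higher and 3 a lower mean. These shares lie near those over all assays, of which 11.9% were higher and 17.9% lower on every card and 79 and 89 of 168 by mean. The 1 higher and 1 lower mesenchymal assay became 0 and 1 with centring on the card median and 2 and 0 with quantile normalization. With scaling to the control RNAs or without centring they became 0 and 0. The median difference of the 5 was -0.03, but 0.34 with scaling to the control RNAs and 0.38 with quantile normalization. It was 0.05 when the centring left out any assay that reached a Ct of 35. MiR-106b was higher on every card by a mean of 0.41, and limma did not call it. MiR-21, often raised in fibrotic tissue, overlapped with a difference of 0.14.

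The mean Ct was above 33 for 5 of the 20 higher, 0 of the 30 lower and 19 of all 168 assays, and its median was 29.9 and 27.4, beside 29.3 over all 168. Those with a mean Ct above 33 were miR-184, miR-410, miR-142-5p, miR-181c and miR-434-3p.

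A single seed held assays on both sides. MiR-193 had -0.96 and -0.37 on the untreated cards and from -4.52 to -1.06 on the CCl4 cards, with a median of -2.47, and miR-193b had -1.63 and -2.05 and from -1.52 to 0.67, with a median of -0.78. The differences were -1.97 ± 0.78 and 1.28 ± 0.63 (limma adjusted p = 0.0173 and 0.0111), and the sequences printed above differ at 3 of 22 positions. The gaps were only 0.10 and 0.12. MiR-193 lost its side with centring on the card median, with centring on assays below a Ct of 35 and with quantile normalization, and miR-193b with quantile normalization and without centring. The 2 genes lie on different chromosomes. MiR-193b sits at chr16:13449570-13449591 on the plus strand, and it and 1 of the 2 copies of miR-365 span 4347 bases. The other copy of miR-365 lies at chr11:79726467-79726488, on the same chromosome and strand as miR-193 at chr11:79712009-79712030. MiR-365 was lower on every card, like miR-193 and unlike miR-193b, at -1.24 ± 0.35 (limma adjusted p = 0.0111). The assay does not tell the copies of miR-365 apart.

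Neighbouring miRNAs did not always share a side. Both members lay lower at the miR-29b and miR-29c, the miR-29a and miR-29b, and the miR-192 and miR-194 loci, and both higher at miR-409-3p and miR-410. The miR-29b and miR-194 assays each detect 2 copies and cannot be assigned to 1 locus, and miR-215, beside the other copy of miR-194, overlapped. In the miR-17-92 cluster of chromosome 14, which drives proliferation, 0 of 6 members had groups that did not overlap, beside 50 of all 168 assays (29.8%), and nothing is read from so few. The list of that cluster and its paralogs had a median difference of -0.04 over 11 assays, but 0.33 with scaling to the control RNAs, 0.11 with quantile normalization and 0.04 when the centring left out any assay that reached a Ct of 35. MiR-15a was lower on every card while miR-16, from the same locus and also from a locus with miR-15b, overlapped.

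Being on 1 side at every duration did not mean being level across durations. An F test among the 3 durations in limma called 69 of all 168 assays (41.1%), 13 of the 50 on 1 side and 56 of the 118 that overlapped. Assays were put on 1 side by the same CCl4 values, which disfavours a wide spread among durations. Nothing is therefore read from the lower share among them. Among the 30 lower assays, the largest difference was at 4 weeks for 18, at 1 week for 10 and at 8 weeks for 2, and the smallest was at 8 weeks for 20. The median difference of the lower assays was -1.10, -1.30 and -0.82 at 1, 4 and 8 weeks, and of the higher 1.69, 1.48 and 1.16. The card nearest to untreated was an 8-week card for 17 of the 30 lower and 9 of the 20 higher assays.

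**Figure D4:**
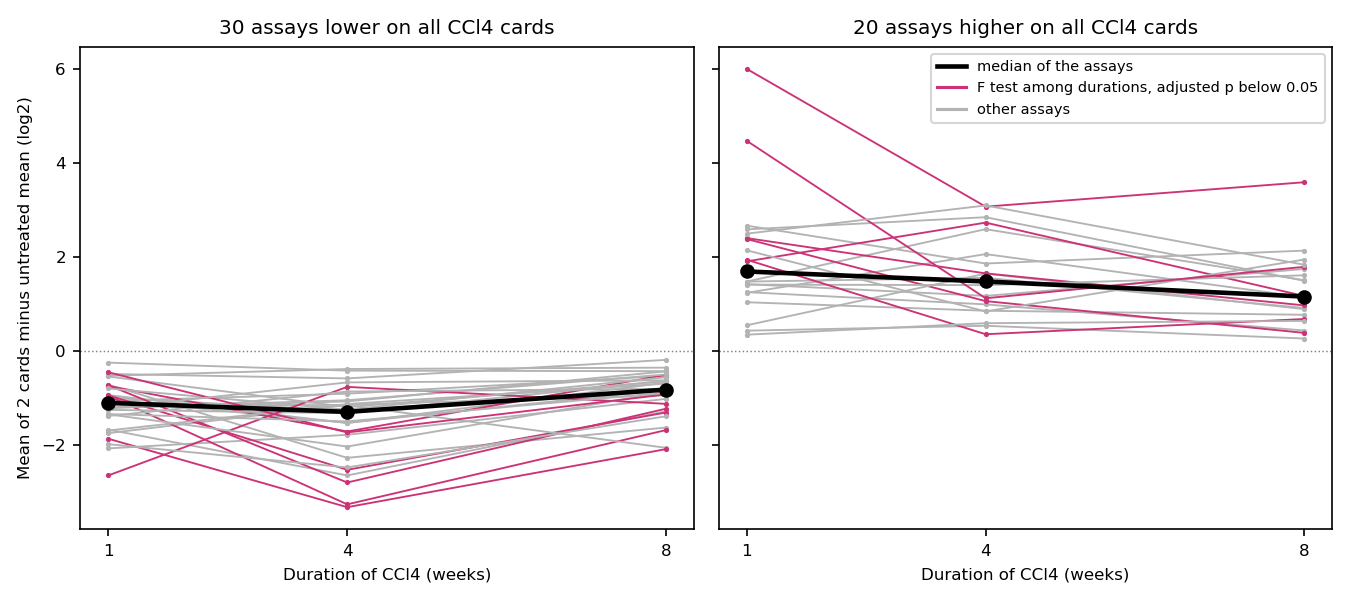
Mean of the 2 cards of a duration minus the mean of the 2 untreated cards (log2, vertical axis) against duration in weeks, with 1 line for each of the 30 lower and 20 higher assays. Coloured lines passed limma's F test among durations at an adjusted p of 0.05, 7 of the lower and 6 of the higher. The black line is the median, which was closest to 0 at 8 weeks in both panels.

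The side of an assay depends on the scaling. With the cards scaled to the control RNAs U6, snoRNA135 and snoRNA202, 27 assays were higher and 9 lower on every CCl4 card, in place of 20 and 30, and the median difference of all assays was 0.31 in place of -0.05. U6 had levels of 10.58 and 11.36 in untreated liver, of 13.49 and 12.90 after 1 week of CCl4, and from 9.31 to 10.29 at 4 and 8 weeks. Without any centring, 6 were higher and 9 lower. Across 6 other scalings, 5 higher assays (miR-132, miR-223, miR-34b-3p, miR-409-3p and miR-450a-5p) and 3 lower ones (miR-107, miR-802 and rno-miR-345-3p) kept their side in every one. With the control RNA scaling, none of the 3 miR-29 assays had all CCl4 cards below both untreated cards, while the family's median difference was still -1.05. With quantile normalization miR-29a lost its side too, so the 3 of 3 held in 3 of the 6 scalings.

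Among the 111 assays determined on some cards, none was determined on all 6 CCl4 cards and on no untreated card. MiR-134, of the Dlk1-Dio3 cluster, gave a Ct on all 6 CCl4 cards and on 1 untreated card. A further 7 assays, miR-9 and miR-96 among them, gave a Ct on both untreated cards and on at most 2 CCl4 cards. These were not tested.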

How the data were processed

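Total liver RNA was measured on 8 TaqMan rodent miRNA cards, 2 per group, grouped by the sample labels. The authors deposited raw Ct values of each card, neither normalised nor averaged over cards, with empty cells where no Ct was determined. The authors also deposited fold changes from DataAssist 0.50 (maximum Ct 39.0, geometric mean normalization), which hold their own comparisons and were not used. No column of per-sample values was left out. How the Ct threshold was set is not given in the sources used here.

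Each card was centred on the mean Ct of the 168 assays determined on all 8 cards, and the sign was turned so that higher means more RNA. The precision is limited by 2 untreated cards. Pooled CCl4 cards were tested against untreated cards with limma 3.58.1 in R 4.3.3 (lmFit, eBayes, Benjamini-Hochberg at 0.05 over all 168 assays). The SE printed is that of the pooled fit, also where the p-value beside it is from the model with 4 group means. A model with 4 group means was planned as an alternative. Printing its calls in place of those of the pooled test was chosen after seeing the data. Its reruns under other scalings and with cards left out were also chosen then, like the counts of list members on 1 side under other scalings. The code was tested on simulated data. Other alternatives were other centrings, limits on Ct (35 on every card, or a mean of 32), undetermined values set to Ct 40 for assays with a Ct on at least 4 cards, a replicate block, and each card left out.

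Named assays were the 10 widest gaps per direction, the 5 largest differences among called assays per direction, the miR-29 family and miR-122, the control RNAs, the edge cases, and members of 21 lists that lay on 1 side. Members and lists were chosen with earlier results of these data known. Assays added beyond that rule are list members, seed relatives or neighbours named for comparison after their values were seen. Sequences and positions are from RefSeq (GRCm38.p6). Assay names without an arm were matched to the arm that held the older name, from general knowledge. Figures were drawn with matplotlib 3.10.9.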

Additional observations from a re-analysis of the deposited data

Results flagged for a closer look

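The levels of 15 of the 49 named assays differed among the 3 CCl4 durations by limma's F test, beside 69 of all 168. Among those higher on every CCl4 card, the adjusted p was 0.0113 for miR-409-3p, 0.0202 for miR-223, 0.00296 for miR-410 and 0.0155 for miR-434-3p. Relative to untreated, miR-409-3p was higher by 3.07 at 4 weeks and 3.59 at 8 weeks, with its highest levels at 1 week. MiR-410 was higher by 4.47, 1.12 and 1.79 at 1, 4 and 8 weeks, while miR-223 was higher by 1.91, 2.73 and 1.17. Over all 168 assays, the number called by limma's F test fell when any card was left out, most without a 1-week card.

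Among those lower on every card, the adjusted p of limma's F test was 0.0155 for miR-802, 0.0234 for miR-194, 0.0155 for miR-192, 0.035 for miR-29b, 0.035 for miR-193 and 0.0234 for miR-30c. MiR-192 was at -0.73, -2.80 and -1.23 relative to untreated at 1, 4 and 8 weeks, and miR-29b at -2.65, -0.76 and -1.12. The overlapping assays miR-146b and miR-126-5p had adjusted p-values of 0.0096 and 0.0493 in the same limma test. Of the control RNAs, U6 had 0.00298, snoRNA202 0.0317 and Y1 0.0281.

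MiR-379 had 1 CCl4 card far from the other 5, CCl4 4 weeks replicate 2, whose distance to the nearest card was 0.712 of the range of the 6 cards. Chance marks about 1 in 20 groups this way, and 1 of 49 named assays was marked. Outside the 168 assays, miR-467c, miR-543 and rno-miR-381 each gave a Ct on 4 of 6 CCl4 cards and on neither untreated card, with Ct values between 32.5 and 36.0.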

How the results depend on the processing

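The 50 assays on 1 side stayed there by construction when a card was left out, and the counts ran from 20 to 33 higher and from 30 to 37 lower, with 33 higher without untreated replicate 2. With the control RNA scaling 27 were higher and 9 lower, and without centring 6 and 9. A Ct below 35 on every card left 16 and 30, dropping miR-181c, miR-184, miR-409-3p and miR-410, and a mean Ct below 32 left 15 and 30. The pooled limma test called 5 higher and 1 lower with the control RNA scaling. With a CCl4 card left out it called at most 2 higher and 1 lower, without CCl4 4 weeks replicate 2. The model with 4 group means called 21 and 28. That model's calls were 11 and 14 with centring on all determined assays, 30 and 6 with the control RNA scaling, 1 and 1 without centring, and ran from 5 to 21 higher and 1 to 29 lower with each card left out. The count that differed among durations was 69, but 16 without centring, 25 with undetermined values at Ct 40, and 7 to 66 with each card left out (7 and 8 without a 1-week card, 35 without CCl4 4 weeks replicate 2). The cause of these moves was not tested.

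Directions turned for miR-122, U6, snoRNA135, snoRNA202 and Y1, not all of which lay near 0. In the main comparison miR-122 had a difference of -0.53, and snoRNA202 was at 0.596 of the untreated level. MiR-122 was 0.027 with quantile normalization. U6 was 0.21 with the control RNA scaling and, from -0.70 to 0.23 with each card left out, above 0 without untreated replicate 2, either 4-week card or CCl4 8 weeks replicate 2 (0.23, 0.13, 0.10 and 0.14). SnoRNA135 was 0.17 with the control RNA scaling and 0.25 with quantile normalization, and snoRNA202 was 0.042 with the latter. Y1 was -0.079 with the card median, -0.14 with all determined assays, -0.0035 with quantile normalization, -0.36 without centring, and, from -0.33 to 0.36 with each card left out, below 0 without untreated replicate 2, either 4-week card or either 8-week card (-0.16, -0.0063, -0.33, -0.020 and -0.16). Over the 49 named assays and the alternatives run for them, 904 values kept direction and side of the threshold, 48 passed it where the pooled test did not, 18 turned direction, and U6 came to 0 with quantile normalization. No assay passed the threshold in the pooled test, so keeping its side meant staying above it. The reruns of the model with 4 group means under other scalings or with cards left out are not in this tally. It therefore says nothing on how stable that model's calls were.

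With the replicate block, the pooled limma test called 0 higher and 0 lower, with 32 at an unadjusted p below 0.05, and 59 assays differed among durations. The correlation of same-numbered cards' deviations ran from -0.50 to 0.42 over the pairs of groups, so the numbers were not shown to pair the cards. Assays determined on only some cards were not tested, and why they lacked a Ct on the others was not tested either.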
